A study of Mus musculus with 98 samples.

Results

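The collagen genes of the mouse were described across 4 tissues of mice whose livers carry either human or murine hepatocytes. The members were all mouse genes with a symbol of the form Col, number, a, number that had rows in both deposited count tables and a mean of at least 0.5 CPM (read counts scaled to a fixed library size, here over mouse rows) in 1 or more tissues. All 44 genes with such a symbol met the limit, out of 19347 mouse genes present in both tables. The member nearest to the limit was Col10a1, with a mean of 0.584 CPM in muscle, followed by Col17a1 with 0.681 CPM in liver, and none lay below it. Col10a1 met the limit only through high values in single muscle libraries, which are given below. Of the 44 members, 35 reached the limit in liver, 39 in muscle, 42 in the arcuate nucleus (ARC) and 43 in the suprachiasmatic nucleus (SCN).

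All animals were 10-week-old male FRGN mice, which lack Fah, Rag2 and Il2rg on a non-obese diabetic background, were cycled on nitisinone (NTBC) and received antibiotics (SMX/TMP) and dextrose. Loss of Fah makes the host's own hepatocytes depend on nitisinone, so that transplanted cells can replace them, and loss of Rag2 and Il2rg leaves the host without B, T and NK cells. The Hu arm received human and the Mu arm murine hepatocytes by injection into the spleen, and muscle, ARC and SCN came from the same kind of host in both arms. Mouse rows of Mu livers therefore hold RNA of the graft's hepatocytes and of host cells, and mouse rows of Hu livers that of host cells, with any host hepatocytes that remained. Tissues were taken at ZT 2, 6, 10, 14, 18 and 22, where ZT is Zeitgeber time and counts the hours from lights on, giving 15 Hu and 12 Mu libraries of liver, 15 and 12 of muscle, 10 and 12 of ARC and 10 and 12 of SCN. The labels do not say which libraries came from the same animal, and p-values measure the spread between these libraries.

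Collagens are proteins of 3 chains wound into a triple helix, and they are the main structural proteins of the extracellular matrix. Fibrillar types such as I, III and V form the banded fibrils that give tissue its strength. Type IV forms the network of basement membranes, type VI forms beaded filaments around cells, and the fibril-associated types (FACIT) coat the fibrils. In the liver most fibrillar collagen is made by stellate cells and portal fibroblasts, while in muscle the resident fibroblasts and tendon cells are the known sources. Counts of human collagen rows were not analysed here, because the tables pair no names with the human identifiers.

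Counts in mouse rows ranged from 7.70 to 87.9 M counts per library in Hu livers and from 97.1 to 118.3 M in Mu livers, from 43.1 to 92.1 M in muscle and from 23.7 to 47.1 M in the brain regions. Human rows held 15.9 to 93.1% of the counts of Hu livers, with a median of 58.7%, and 0.00592 to 0.0204% in Mu livers. The labels state that only animals with over 70% human hepatocytes were used, and the share of counts was below that value in 11 of 15 Hu livers; a share of counts is not a share of cells. The labelled tissues carried their markers: the summed level of 10 hepatocyte genes was 104200 to 138700 CPM in Mu livers and the sum of 10 muscle fibre genes was 93690 to 141400 CPM in Mu muscles. From here on CPM are TMM-scaled (trimmed mean of M values, an edgeR scaling) within a tissue and, in liver, over mouse rows alone. Differences are log2 Hu minus Mu from edgeR's quasi-likelihood F test with Benjamini-Hochberg adjustment over all genes tested, called at an adjusted p under 0.05.

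Levels can be compared between genes only per length, here as CPM per kb of annotated exon. On that scale Col18a1, a basement membrane collagen with heparan sulfate chains whose C-terminal fragment is endostatin, was first among the members in liver at 137 CPM per kb over all libraries. It was followed by Col14a1 at 31.9, a FACIT that binds fibrils, and by Col4a1 at 21.4, a chain of the basement membrane network. In muscle the first members per kb were the fibrillar chains Col1a1 at 57.5, Col1a2 at 39.7 and Col3a1 at 35.9 CPM per kb. The order was another one in the brain, where Col25a1, a transmembrane collagen made by neurons, led in ARC at 13.0 CPM per kb, before Col4a2 at 8.71 and Col9a2 at 5.83. In SCN the first were Col4a2 at 17.1, Col4a1 at 7.96 and Col25a1 at 7.34 CPM per kb.

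Several collagen genes lie side by side. Col4a5 and Col4a6, 2 chains of the type IV network, are read in opposite directions from start sites about 1.31 kb apart on chromosome X, and Col3a1 lies 24.6 kb from Col5a2 on chromosome 1. The bases upstream of their starts are shown for Col4a5, Col4a6 and Col3a1, which were higher in Hu livers, and for Col27a1 and Col5a3, the fibrillar members that were lower there and were also the ones with a daily rhythm in Mu livers. Sequences are from RefSeq on GRCm38.p6, read 5′ to 3′ towards the start of transcription, and bases inside annotated exons were left out. The window of Col27a1 lies upstream of a RefSeq start inside the annotated gene, which itself begins at chr4:63214004. Capitals mark a CCAAT box (CCAAT), a GC box (GGGCGG) or a TATA box (TATAAA), each searched on both strands.
Col4a5, chrX:141475169-141475384, plus strand: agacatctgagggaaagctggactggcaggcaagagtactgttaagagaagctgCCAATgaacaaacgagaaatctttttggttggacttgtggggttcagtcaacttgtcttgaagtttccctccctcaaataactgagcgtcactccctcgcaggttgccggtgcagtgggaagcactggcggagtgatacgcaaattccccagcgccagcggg
Col4a6, chrX:141474077-141474326, minus strand: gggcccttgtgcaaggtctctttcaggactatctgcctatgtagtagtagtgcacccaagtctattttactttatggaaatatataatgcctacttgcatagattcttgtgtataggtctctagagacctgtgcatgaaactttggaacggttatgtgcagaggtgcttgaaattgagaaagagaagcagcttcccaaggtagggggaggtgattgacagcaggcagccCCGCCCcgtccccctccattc
Col3a1, chr1:45311288-45311537, plus strand: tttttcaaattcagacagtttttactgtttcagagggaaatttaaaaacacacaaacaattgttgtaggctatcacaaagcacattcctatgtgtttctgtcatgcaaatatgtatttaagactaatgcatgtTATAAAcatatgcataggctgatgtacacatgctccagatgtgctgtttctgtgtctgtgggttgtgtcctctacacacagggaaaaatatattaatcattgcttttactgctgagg
Col27a1, chr4:63215162-63215411, plus strand: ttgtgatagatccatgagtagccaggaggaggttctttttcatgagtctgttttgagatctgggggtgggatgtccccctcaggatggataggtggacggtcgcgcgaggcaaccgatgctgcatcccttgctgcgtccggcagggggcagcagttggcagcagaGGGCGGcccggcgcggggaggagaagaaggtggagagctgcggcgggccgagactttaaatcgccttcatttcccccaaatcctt
Col5a3, chr9:20815068-20815317, minus strand: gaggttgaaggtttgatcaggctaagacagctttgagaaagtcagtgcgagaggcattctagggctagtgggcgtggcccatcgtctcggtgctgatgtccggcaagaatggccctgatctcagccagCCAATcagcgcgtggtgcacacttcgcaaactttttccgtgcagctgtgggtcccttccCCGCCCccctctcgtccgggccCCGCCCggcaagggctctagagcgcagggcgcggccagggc
RefSeq windows were found for 35 of 44 members, in 38 windows of 250 bases. A GC box stood in 22 of those windows (57.9%), against 32.7% of all 32851 promoter windows of this length. A CCAAT box was in 34.2% of the member windows and 33.8% of all, and a TATA box in 13.2% and 12.4%. The E-box CACGTG, the element known from clock genes, was in 0 of 38 member windows and in 6.02% of all. These are matches of letters in 1 window a start site and do not show binding.

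In the livers, the mouse rows of most collagens were higher in the Hu arm. Of 36 members tested, 29 were higher and 4 lower in Hu, against 42.5% of all 14977 genes called higher and 37% called lower (79.5% called in either direction). The median difference of the 36 was 1.6, beside 0.07 over all genes tested. With so many genes called, a call alone sets no member apart. The 8 members that were too low to test were Col2a1, Col6a4, Col9a1, Col9a2, Col10a1, Col11a1, Col19a1 and Col26a1, of which no liver library held more than 0.359 CPM.

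Among the fibrillar chains, types I and III were higher and type V was split. Col1a1, the larger part of type I collagen, had a lowest, median and highest level of 12.4, 17.4 and 48.0 CPM in Mu livers and of 16.1, 83.5 and 256 CPM in Hu livers. 10 of 15 Hu values exceeded the highest Mu value and the rest fell within the Mu range (2.06 ± 0.40 SE, adjusted p = 4.92e-05). Its partner chain Col1a2 ran from 20.1, 28.8 and 61.1 CPM in Mu to 28.1, 106 and 291 CPM in Hu (1.85 ± 0.37 SE, adjusted p = 7.02e-05). Col3a1, which forms the fine fibres of soft organs, gave 45.7, 62.8 and 143 CPM in Mu and 56.9, 214 and 631 CPM in Hu (1.75 ± 0.36 SE, adjusted p = 1.29e-04). For both, 10 of 15 Hu livers exceeded every Mu liver, as for Col1a1.

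Type V collagen, which starts fibrils and limits their width, split by chain. Col5a1 was higher in Hu (1.55 ± 0.27 SE, adjusted p = 1.28e-05), with 12 of 15 Hu livers above every Mu liver. So was Col5a2, the neighbour of Col3a1, at 3.66, 5.37 and 11.2 CPM in Mu and 8.23, 28.2 and 84.9 CPM in Hu (2.52 ± 0.37 SE, adjusted p = 1.44e-06). The third chain, Col5a3, went the other way, with 15.6, 33.0 and 56.0 CPM in Mu and 3.98, 11.2 and 20.4 CPM in Hu. 14 of 15 Hu livers lay below every Mu liver (-1.67 ± 0.16 SE, adjusted p = 1.98e-09). The same direction held for Col27a1, a fibrillar collagen known from cartilage, whose Mu livers gave 32.3, 126 and 332 CPM and whose Hu livers gave 21.2, 36.8 and 55.4 CPM (-1.86 ± 0.18 SE, adjusted p = 2.35e-09). Here the arms overlapped, and 5 of 15 Hu livers were below every Mu liver. The other fibrillar members tested, Col24a1 (1.30 ± 0.25, adjusted p = 5.49e-05) and Col11a2 (1.0 ± 0.16, adjusted p = 6.38e-06), were higher in Hu.

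All 6 type IV chains were higher in Hu livers, with a median difference of 2.42. Col4a5, best known as the gene mutated in X-linked Alport syndrome, had the widest gap of any member tested. It measured 1.2, 2.92 and 6.0 CPM in Mu livers and 21.5, 32.6 and 47.7 CPM in Hu livers, so the lowest Hu liver was above the highest Mu liver (3.40 ± 0.19 SE, adjusted p = 3.21e-13). Its neighbour Col4a6 was lower in level and overlapped between arms, with 9 of 15 Hu livers above every Mu liver (2.16 ± 0.35 SE, adjusted p = 4.92e-06). Col4a1 and Col4a2, the chains of nearly all basement membranes, moved by like amounts. Col4a1 gave 46.8, 61.6 and 101 CPM in Mu and 86.5, 225 and 481 CPM in Hu (1.89 ± 0.25 SE, adjusted p = 2.42e-07). Col4a2 gave 31.3, 44.5 and 62.8 CPM in Mu and 60.0, 172 and 337 CPM in Hu (1.98 ± 0.26 SE, adjusted p = 2.26e-07). Their genes are read in opposite directions from overlapping starts, and reads there can be told apart only by strand. The rare chains Col4a3 (2.79 ± 0.37, adjusted p = 3.36e-07) and Col4a4 (2.68 ± 0.33, adjusted p = 1.02e-07) were also higher, and the Hu livers did not overlap with the Mu livers for Col4a3.

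Type VI collagen, the beaded filament of connective tissue, is built from a chain of Col6a1, 1 of Col6a2 and 1 of Col6a3 or a related gene. Col6a3 gave 11.7, 20.1 and 40.0 CPM in Mu and 25.2, 96.9 and 295 CPM in Hu, and 11 of 15 Hu livers were above every Mu liver (2.44 ± 0.35 SE, adjusted p = 1.04e-06). Col6a1 (1.48 ± 0.33, adjusted p = 3.06e-04) and Col6a2 (1.07 ± 0.34, adjusted p = 0.00570) differed less. Of the related chains, Col6a5 was higher in Hu (1.82 ± 0.41, adjusted p = 2.61e-04), and Col6a6 was not called (0.23 ± 0.18, adjusted p = 0.235).

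The basement membrane collagens of the multiplexin class did not follow type IV. Col18a1 was lower in every Hu liver than in any Mu liver, at 1133, 1523 and 1716 CPM in Mu and 86.2, 505 and 798 CPM in Hu (-1.50 ± 0.20 SE, adjusted p = 2.58e-07). Col15a1, its relative, was not called, with 5.03, 11.9 and 18.8 CPM in Mu and 4.20, 13.7 and 19.7 CPM in Hu (0.01 ± 0.20 SE, adjusted p = 0.958). Among the FACIT members, Col12a1 was higher in all 15 Hu livers than in any Mu liver (2.30 ± 0.29, adjusted p = 1.24e-07), and Col14a1 (1.68 ± 0.30, adjusted p = 1.96e-05), Col16a1 (1.58 ± 0.26, adjusted p = 7.68e-06), Col22a1 (1.33 ± 0.42, adjusted p = 0.00562) and Col9a3 (0.83 ± 0.18, adjusted p = 1.92e-04) were higher too. Col20a1 was the 1 FACIT member that was lower in Hu (-0.78 ± 0.11, adjusted p = 1.14e-06). Col7a1, the anchoring fibril of skin, measured 0.976, 1.47 and 3.14 CPM in Mu and 2.52, 4.44 and 8.81 CPM in Hu (1.61 ± 0.20 SE, adjusted p = 1.06e-07), with 14 of 15 Hu livers above every Mu liver. The transmembrane members Col13a1, Col23a1 and Col25a1 were higher by 1.23, 0.87 and 2.39, and Col17a1 was not called (-0.53 ± 0.29, adjusted p = 0.104). The short-chain members Col8a1 and Col8a2 (1.65 and 1.43) and Col28a1 (2.12) were higher as well.

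The arms did not overlap for 4 of 36 members: Col4a3, Col4a5 and Col12a1 were higher and Col18a1 was lower in every Hu liver. Over all genes tested, every Hu liver was above every Mu liver for 7.52% and below for 12.5%.

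**Figure D1:**
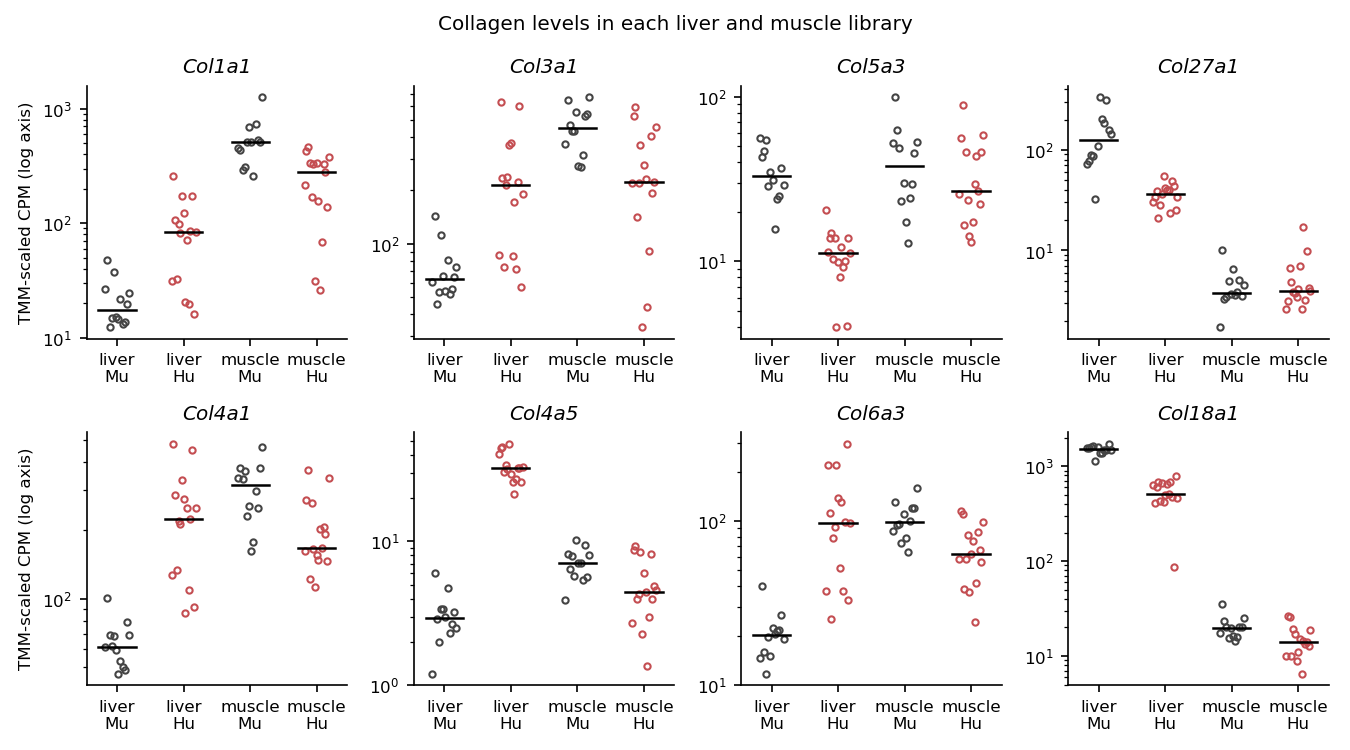
TMM-scaled CPM (log axis) of 8 collagen genes in each library of liver (mouse rows) and muscle, in grey for Mu and red for Hu, with bars at the group medians. Col4a5 separates the arms in liver with medians of 2.92 and 32.6 CPM and Col18a1 is lower in Hu livers.

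These differences depend on what the mouse counts are divided by. Without TMM, the median over all genes moved to 0.74, and 31 members were called higher and 3 lower; Col20a1 lost its call at -0.11, and Col15a1 (0.71) and Col6a6 (0.92) were called higher. When the counts of human and mouse rows together served as library size, so that a level is a part of the RNA of the whole graft and host liver, the median over all genes was -0.70 and 20 members were higher and 7 lower. On that scale Col4a5 still differed by 2.64 (adjusted p = 2.73e-09), Col1a1 by 1.06 (adjusted p = 0.00404) and Col18a1 by -2.16 (adjusted p = 7.76e-07). Col6a1, Col6a2, Col9a3, Col11a2, Col13a1, Col22a1, Col23a1, Col24a1 and Col8a2 were no longer called, Col6a2 and Col23a1 with the sign turned, and Col6a6, Col15a1 and Col17a1 were called lower. Relative to the median of all genes, each of the 3 scalings left the members' median higher, by between 1.32 and 1.61. Such a change of scaling moves all genes by much the same amount. This comparison was therefore largely fixed in advance and is no check on the scaling.

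Markers of the liver's cell types moved between the arms as well, beside 42.5% of all genes called higher and 37% called lower. 8 of 10 hepatocyte genes were lower and none higher in Hu mouse rows, and their summed level was 104200 to 138700 CPM in Mu and 8278 to 93480 CPM in Hu. 10 of 11 stellate cell genes were higher, with sums of 526 to 634 CPM in Mu and 515 to 4752 CPM in Hu. The 8 genes of activated myofibroblasts were higher in 7 cases (76.3 to 190.2 CPM and 228 to 904 CPM) and the portal fibroblast genes in 6 of 7 tested (22.1 to 56.6 CPM and 32.6 to 189.7 CPM). Sinusoidal endothelial, Kupffer cell and bile duct genes were higher in 7 of 8, 6 of 9 and 8 of 8. No marker of these liver cell types was at 0 in all livers, and no list holds a collagen. The part of these cell types in the collagen differences was not tested, and in bulk samples more cells of a type and more RNA per cell cannot be told apart.

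Within the 15 Hu livers, collagens were higher where more of the library was human. The slope on the human share of counts, per 10 percentage points, was called for 22 of 33 members tested, all upward, against 22.9% of all 13879 genes called upward and 18.8% downward (41.7% in all). The members' median slope was 0.34 and that of all genes -0.01. Col14a1 had the smallest p of the members. It ranged from 85.7 to 196 CPM in the 4 livers of lowest share and from 327 to 1040 CPM in the 4 of highest share, with no overlap (slope 0.50 ± 0.05 SE, adjusted p = 5.18e-05). Col13a1 and Col5a1 came next, with slopes of 0.41 ± 0.05 SE, adjusted p = 9.35e-05, and 0.45 ± 0.05 SE, adjusted p = 1.01e-04.

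The 3 steepest slopes were those of type VI chains. Col6a1 ranged from 14.2 to 39.4 CPM at the 4 lowest and from 80.7 to 184 CPM at the 4 highest shares (slope 0.55 ± 0.07 SE, adjusted p = 1.55e-04). Col6a2 and Col6a5 had slopes of 0.53 and 0.57, Col6a3 had 0.47, and Col6a6 was not called at 0.07 ± 0.08. The fibrillar chains Col1a1 (0.48), Col1a2 (0.51), Col3a1 (0.50) and Col5a2 (0.45) were called, and so were Col4a1 (0.32), Col4a2 (0.34), Col4a3 (0.31), Col4a4 (0.40) and Col4a6 (0.34).

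Col4a5, the member with the widest gap between the arms, was the 1 type IV chain without a called slope. It ranged from 26.0 to 45.1 CPM at the 4 lowest shares and from 21.5 to 44.8 CPM at the 4 highest (slope 0.02 ± 0.04 SE, adjusted p = 0.696), and the Hu liver with 15.9% human counts was above every Mu liver. Col7a1 (0.05 ± 0.09), Col15a1 (0.03 ± 0.09) and Col11a2 (-0.04 ± 0.09) had no called slope either. With TMM scaling over mouse rows, no slope was called downward by edgeR on all 15 livers, that of Col18a1 was by DESeq2 and that of Col5a3 by edgeR without Hu liver ZT 10 replicate 1, and 3 of the 4 that were lower in Hu livers had values below 0. Col18a1 ranged from 602 to 798 CPM at the 4 lowest and from 86.2 to 505 CPM at the 4 highest shares (slope -0.22 ± 0.09 SE, adjusted p = 0.0721), and the liver of highest share gave its lowest value. The slopes of Col5a3 and Col20a1 were -0.13 ± 0.07 and -0.06 ± 0.05.

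The stellate cell sum moved the same way, from 571 CPM at the lowest to 4752 CPM at the highest human share. Between the same livers the mouse hepatocyte sum went from 77360 to 8278 CPM. The liver of highest share, with 7.70 M mouse counts, stood apart. In the livers of 73.9, 79.8 and 81.3% human share, the stellate sums were 2235, 2200 and 1948 CPM. The hepatocyte sums there were 40750, 58440 and 51400 CPM. The highest hepatocyte sums were 93480 and 90010 CPM, at 54.3 and 67.9%. The part of these cells in the slopes was not tested. With all rows as library size, 4 slopes were called upward (Col6a1, Col6a2, Col6a5 and Col14a1) and 10 downward, among them Col4a5 at -0.29 ± 0.07, beside a median of -0.31 over all genes. Without the 2 Hu livers farthest from the median share, 10 slopes were called, all upward, and without the 2 of fewest mouse counts, chosen after seeing the data, 14. Among the fits that left out 1 liver, the count was lowest without Hu liver ZT 2 replicate 2, at 15.

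**Figure D2:**
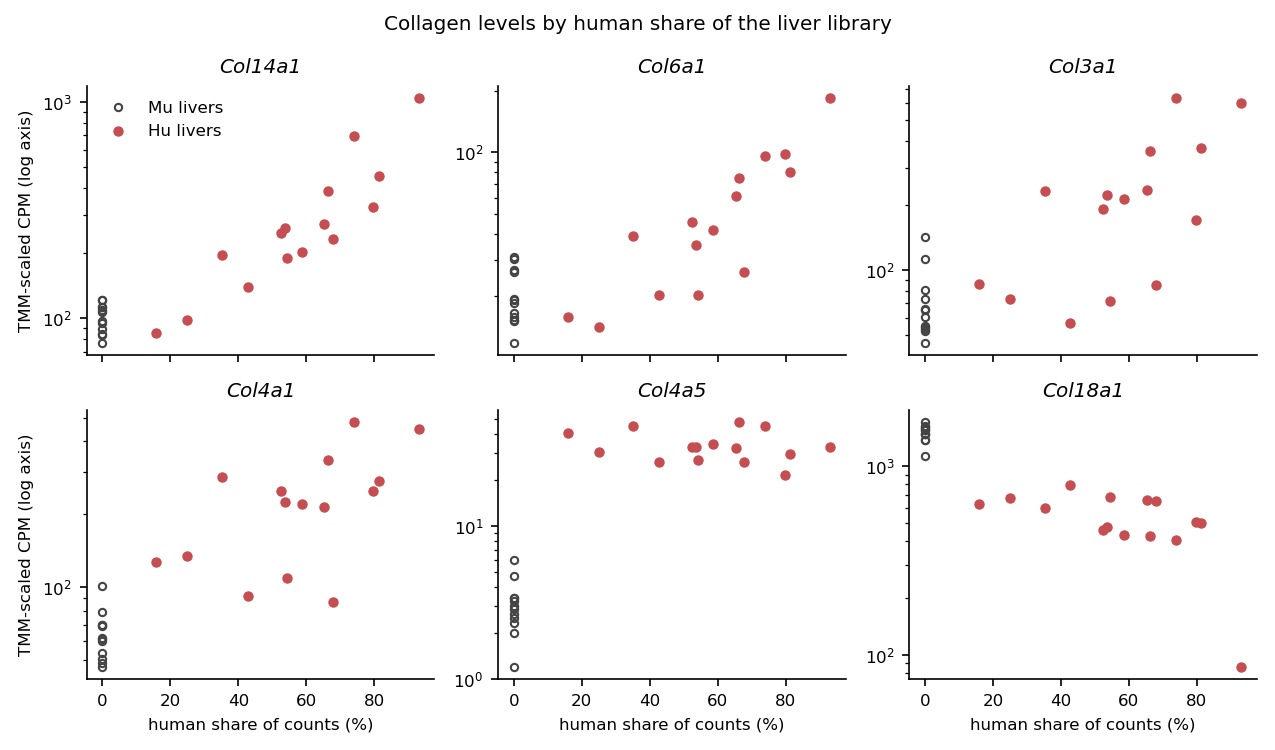
TMM-scaled CPM over mouse rows (log axis) against the human share of counts in percent, for 6 collagen genes, with the 15 Hu livers in red and the 12 Mu livers in grey at a share near 0. Col14a1, Col6a1, Col3a1 and Col4a1 lie higher at higher shares, Col4a5 is level across the Hu livers and far above the Mu livers, and Col18a1 is lowest at the highest share.

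In muscle, many collagens were lower in the Hu arm. Of 42 members tested, 21 were lower and 2 higher in Hu, against 13.3% of all 14197 genes called lower and 13.5% called higher (26.9% in all). The members' median difference was -0.59 and that of all genes 0.03. Col1a1 measured 257, 511 and 1254 CPM in Mu and 26.0, 278 and 467 CPM in Hu muscles. 7 of 15 Hu muscles lay below every Mu muscle, and none lay above all of them (-1.24 ± 0.33 SE, adjusted p = 0.00790). Col1a2 gave 389.8, 643 and 1407 CPM in Mu and 49.0, 379.6 and 614 CPM in Hu (-1.09 ± 0.29 SE, adjusted p = 0.00854). Col3a1 gave 270.0, 451 and 670.2 CPM in Mu and 33.7, 223 and 593 CPM in Hu (-0.92 ± 0.29 SE, adjusted p = 0.0204).

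3 Hu muscles, ZT 10 replicate 1, ZT 14 replicate 2 and ZT 18 replicate 1, gave the 3 lowest values of Col1a1, Col3a1 and Col6a1. Col5a1 was lower in Hu (-0.67 ± 0.17, adjusted p = 0.00581), and Col5a2 (-0.45 ± 0.17, adjusted p = 0.0515) and Col5a3 (-0.23 ± 0.18, adjusted p = 0.354) were not called. The smallest p of all belonged to Col22a1, a FACIT of the junction between muscle and tendon. It measured 14.3, 20.5 and 30.0 CPM in Mu and 8.95, 11.3 and 16.2 CPM in Hu, and 11 of 15 Hu muscles lay below every Mu muscle (-0.78 ± 0.10 SE, adjusted p = 3.02e-05). Col15a1, a multiplexin of the muscle basement membrane, followed with 30.3, 58.1 and 97.3 CPM in Mu and 9.90, 21.6 and 54.4 CPM in Hu (-1.28 ± 0.20 SE, adjusted p = 1.25e-04). Col26a1 came next by p at low levels, with 0.315, 0.410 and 1.11 CPM in Mu and 0.0801, 0.174 and 0.339 CPM in Hu (-1.42 ± 0.22, adjusted p = 1.32e-04).

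Of type IV, Col4a1 (-0.59 ± 0.14, adjusted p = 0.00353) and Col4a2 (-0.63 ± 0.12, adjusted p = 8.49e-04) were lower in Hu muscles. The other 4 chains were not called, at -0.55 ± 0.23, adjusted p = 0.0737 for Col4a5, -0.26 ± 0.21, adjusted p = 0.379 for Col4a3, -0.27 ± 0.19, adjusted p = 0.282 for Col4a4 and 0.07 ± 0.23, adjusted p = 0.851 for Col4a6. Type VI chains Col6a1 (-0.77 ± 0.16, adjusted p = 0.00135), Col6a2 (-0.87 ± 0.18, adjusted p = 0.00156) and Col6a3 (-0.65 ± 0.17, adjusted p = 0.00712) were lower. Col6a5 was higher (0.87 ± 0.29, adjusted p = 0.0281) at levels of 0.435, 0.800 and 4.25 CPM in Hu, a call that was lost with ZT as a factor and without Hu muscle ZT 18 replicate 2 or Mu muscle ZT 18, ZT 22 or ZT 6 replicate 1. Col6a6 was not called (-0.12 ± 0.15, adjusted p = 0.574). The other called members were Col8a1, Col8a2, Col9a1, Col11a1, Col12a1, Col16a1, Col18a1, Col23a1 and Col24a1, all lower, and Col14a1, which was higher (0.51 ± 0.15, adjusted p = 0.0163). The calls of Col8a2 (-0.60 ± 0.22, adjusted p = 0.0464) and Col9a1 (-0.90 ± 0.30, adjusted p = 0.0318) lay near the threshold. They were lost in 20 and 4 of 32 alternative fits, among them fits without single libraries. Every Hu library was above every Mu library for 0.0563% of all genes and below for 0.0493%, and for no member.

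Cell type markers of muscle were mixed, beside 13.5% of all genes called higher and 13.3% called lower. Endothelial genes were lower in Hu for 6 of 8 (sums of 359.7 to 603 CPM in Mu and 267 to 502 CPM in Hu), pericyte genes for 7 of 8 (691 to 872 and 483 to 790.3 CPM) and tendon genes for 3 of 8 (387 to 1547 and 179 to 1267 CPM). The sinusoidal endothelial list went the other way, with 4 of 6 tested higher and 0 lower (63.5 to 107 and 81.9 to 155 CPM). Fibro-adipogenic progenitor genes, from the resident fibroblasts, were lower for 2 of 9 and higher for 0 (1608 to 2517 and 1356 to 2882 CPM), adipocyte genes were higher for 6 of 8 (572 to 4430 and 1419 to 6090 CPM), and the macrophage genes of the Kupffer cell list for 7 of 7 tested (24.6 to 84.5 and 53.5 to 172 CPM). Their part in the collagen differences was not tested.

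Some cartilage collagens, but not all, stood out in 1 library of each arm. Col2a1, the fibrillar collagen of cartilage, was at 44.2 CPM in Mu muscle ZT 10 replicate 1 and at 14.2 CPM in Hu muscle ZT 6 replicate 1, and at most 1.67 CPM in the other 25 muscles. Col10a1, the collagen of hypertrophic cartilage, was at 11 and 2.51 CPM in the same libraries and at most 1.35 CPM elsewhere. Its median over all muscles was 0.0278 CPM. It met the limit for members only through these libraries, so its values there are not independent of that rule. Col9a2 and Col9a3, chains of the FACIT that coats type II fibrils, were also highest in these libraries, at 3.45 and 3.58 CPM for Col9a2. Neither Col2a1 (-2.01 ± 0.83, adjusted p = 0.0727) nor Col9a2 (-0.69 ± 0.41, adjusted p = 0.209) differed between the arms past the threshold. Of the other cartilage collagens tested, Col9a3 and Col11a2 were not called either, and Col9a1 and Col11a1 were called lower in Hu.

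The difference between the arms was itself different in liver and muscle for most members. An interaction term was called for 38 of 42 members tested, 32 with the liver difference above the muscle difference and 6 below, against 31.7% and 33.4% of all 15774 genes. For the 36 members tested in both tissues, 29 were above and 4 below, with a median of 2.13. For Col1a1, with 2.06 in liver and -1.24 in muscle, the interaction was 3.26 ± 0.52 (SE). It was 2.61 ± 0.47 for Col3a1, 2.43 ± 0.28 for Col4a1, 3.04 ± 0.38 for Col6a3 and, as the largest of the 36, 3.91 ± 0.30 for Col4a5. Members lower in liver gave the opposite sign, with -2.08 ± 0.33 for Col27a1, -1.48 ± 0.25 for Col5a3, -1.03 ± 0.26 for Col18a1 and -0.84 ± 0.16 for Col20a1. Col6a6, Col17a1 and Col6a5 were not called. The interaction was not fitted without TMM or with human and mouse rows as library size, the scalings that moved the liver differences.

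**Figure D3:**
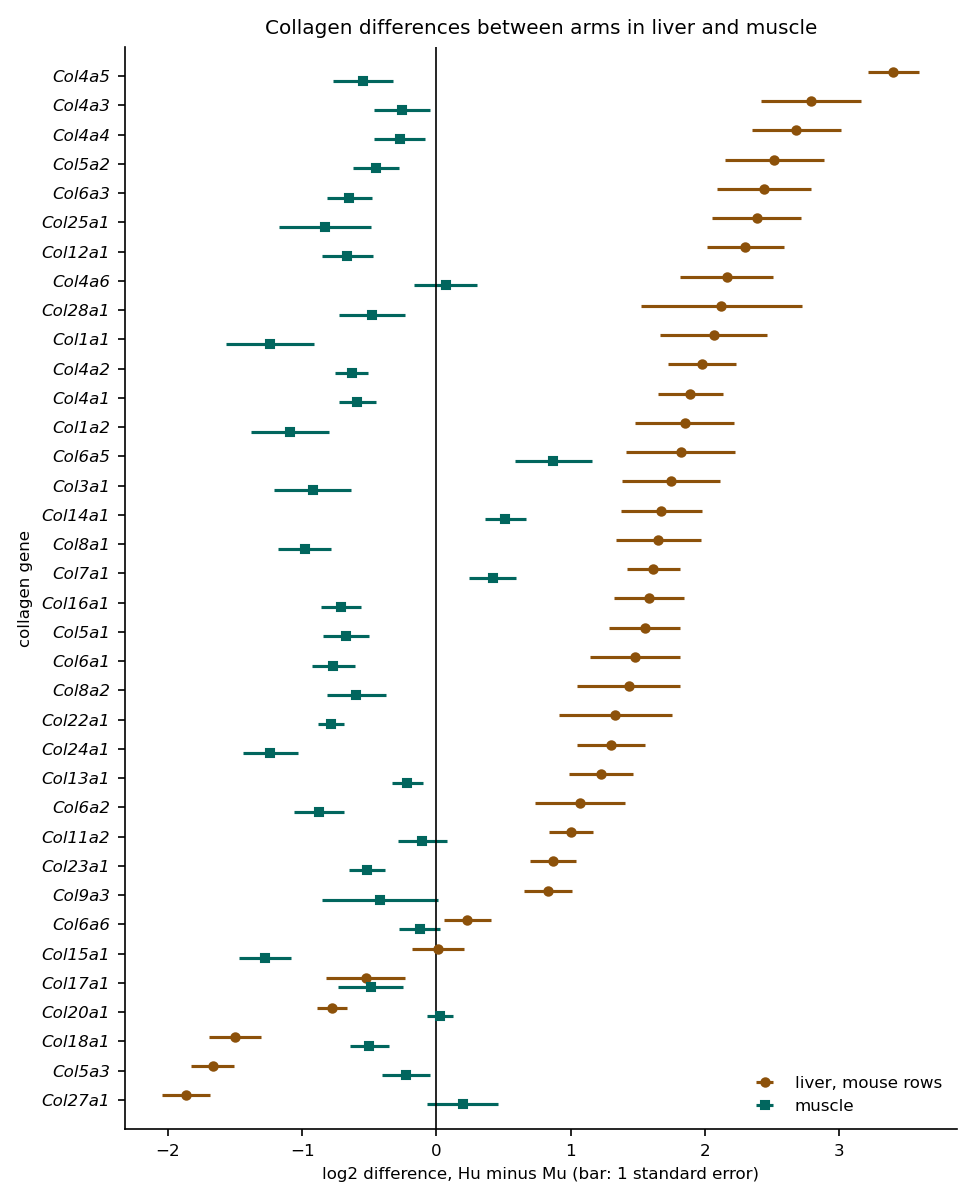
The log2 difference of Hu minus Mu with 1 standard error for the 36 collagen genes tested in both tissues, with liver mouse rows in brown circles and muscle in green squares, in order of the liver value. Most liver points lie right of 0 and most muscle points left of it, and Col4a6, Col6a5, Col7a1 and Col14a1 lie right of 0 in both.

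Few collagens had a called daily rhythm with mouse rows as library size. In Mu livers, 2 of 36 members had a called 24 h rhythm, against 17.3% of all genes, and with all rows as library size 0 did. Col27a1 averaged 75.0, 87.5 and 70.7 CPM at ZT 2, 6 and 10 and 267, 249 and 149 CPM at ZT 14, 18 and 22, with 2 livers at each time. The fitted peak was at ZT 17 with an amplitude of 0.99 on the log2 scale (adjusted p = 0.00210), and the Mu livers of the dark phase were all above those of ZT 2 to 10. Col5a3 ran opposite, from 50.5 CPM at ZT 6 to 23.4 CPM at ZT 14, with its peak at ZT 3.88 (adjusted p = 0.0289), a call lost when Mu liver ZT 2 replicate 1, ZT 6 replicate 2, ZT 14 replicate 2 or either of ZT 18 was left out. Col15a1 was next (adjusted p = 0.143).

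In the mouse rows of Hu livers, 0 of 36 members had a called rhythm, against 0.167% of all genes, and DESeq2 called 1 (Col24a1). At an unadjusted p under 0.05 stood 5 members, against 15.8% of all genes. With all rows as library size 9 members were called, against 58.4% of all genes on that scale. With mouse rows as library size, the 3 smallest adjusted p by edgeR were those of Col24a1 (0.0721), Col13a1 (0.182) and Col6a6 (0.182). For Col27a1, whose Hu livers averaged between 28.8 and 48.7 CPM across the day, the amplitude was 0.26 (adjusted p = 0.638). The test of a different rhythm between the arms called 0 of 36, against 1.28% of all genes, and DESeq2 called 2 (Col15a1 and Col27a1). By edgeR 4 members stood at an unadjusted p under 0.05, against 21% of all genes, and the adjusted p was 0.107 for Col15a1, 0.107 for Col27a1 and 0.172 for Col24a1.

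In muscle, Col5a3 was the 1 member of 42 with a called rhythm in Mu (5.31% of all genes), and 5 were called in Hu (7.78%). Col5a3 averaged 75.5 CPM at ZT 2 and 15.1 CPM at ZT 14 in Mu, with a peak at ZT 2.16 and an amplitude of 1.09 (adjusted p = 0.00449). In Hu it averaged 57.0 CPM at ZT 2 and 13.6 CPM at ZT 10, with a peak at ZT 23.5 and an amplitude of 0.94 (adjusted p = 0.00878). Both arms were thus high around lights on. Col4a2 (0.0619) and Col4a1 (0.0620) had the next adjusted p in Mu.

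The other 4 called in Hu muscle were Col15a1 (adjusted p = 0.0306), Col9a2 (0.0446), Col13a1 (0.0452) and Col5a1 (0.0497). Col15a1 peaked at ZT 0.684. Without the Hu library that stood out for some cartilage collagens, ZT 6 replicate 1, Col9a2 had an adjusted p of 0.417 and an amplitude of 0.49 in place of 1.31. The calls of Col13a1 and Col5a1 were lost in 25 and 24 of 31 alternative fits and that of Col15a1 in 5. Leaving out single muscles moved the count in Hu between 1 and 9, and DESeq2 called 5 members in Mu and 9 in Hu. No member of 42 had a rhythm that differed between the arms by edgeR (0.0704% of all genes) or DESeq2, and 2 stood at an unadjusted p under 0.05, against 13.8% of all genes. The smallest adjusted p of that test were those of Col22a1 (0.274), Col5a3 (0.323) and Col6a6 (0.387).

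**Figure D4:**
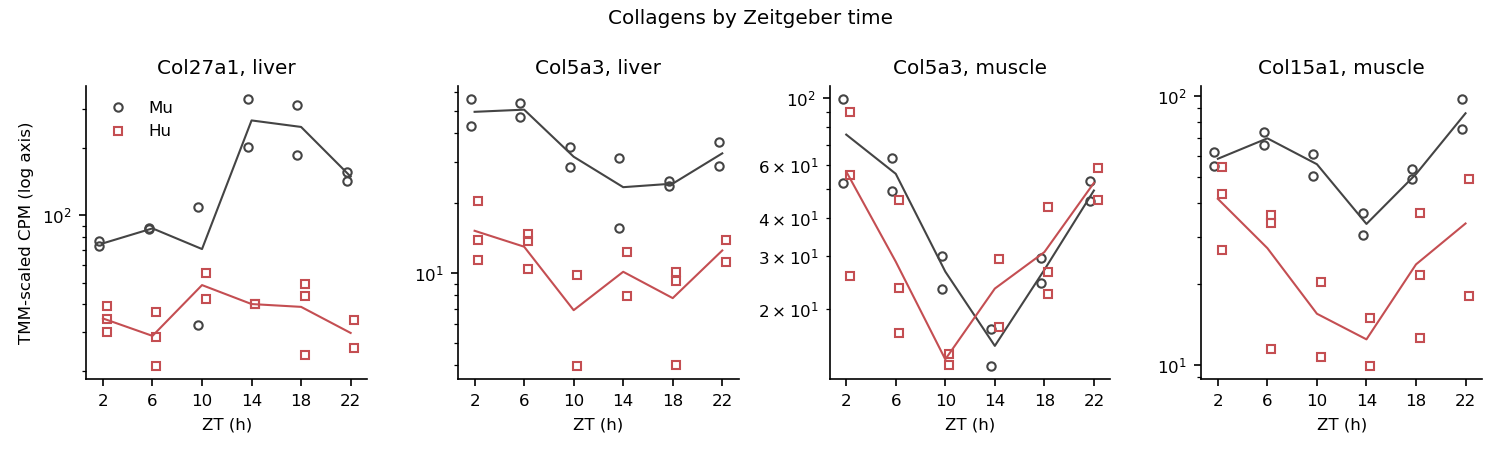
TMM-scaled CPM (log axis) against Zeitgeber time in hours for Col27a1 and Col5a3 in liver and for Col5a3 and Col15a1 in muscle, with each library as a point, Mu in grey circles, Hu in red squares, and lines through the means. Col27a1 is high at ZT 14 to 22 in Mu livers, and Col5a3 is highest at ZT 2 and lowest at ZT 14 in Mu and ZT 10 in Hu muscle.

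In the brain regions, no collagen was called different between the arms. In ARC 0 of 43 members were called by edgeR, against 0.00663% of all genes, and 0 by DESeq2. At an unadjusted p under 0.05 stood 2, against 4.24% of all genes, and the smallest p was that of Col9a3 (-0.35 ± 0.09, adjusted p = 0.463). In SCN 0 of 43 were called by edgeR, against 0% of all genes, and 0 by DESeq2. At an unadjusted p under 0.05 stood 1, against 2.17% of all genes, and the smallest p was that of Col4a3 (0.55 ± 0.20). The median difference of the members was 0.01 in ARC and -0.10 in SCN. The 18 chains of types I, III, IV, V and VI tested lay between -0.30 (Col6a5) and 0.25 (Col4a6) in ARC and between -0.55 (Col6a1) and 0.55 (Col4a3) in SCN. Rhythm was called for 0 of 43 members in Mu and in Hu of either region by edgeR. The backgrounds were 1.41% (Mu) and 0.0995% (Hu) of all genes in ARC and 0.207% and 0.00666% in SCN. At an unadjusted p under 0.05 stood 2 members in Mu and 1 in Hu ARC, against 14.5% and 5.87% of all genes, and 6 in Mu and 7 in Hu SCN, against 11.6% and 5.52%. DESeq2 called 1 member in Mu SCN (Col20a1) and 0 in the other 3. The smallest adjusted p by edgeR in ARC were those of Col11a2 (0.234), Col9a2 (0.286) and Col16a1 (0.395) in Mu and Col14a1 (0.53), Col8a2 (0.923) and Col4a5 (1.0) in Hu. In SCN they were those of Col20a1 (0.165), Col8a1 (0.243) and Col6a1 (0.256) in Mu and Col5a3 (0.722), Col15a1 (0.868) and Col11a1 (0.868) in Hu.

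Between the regions collagens did differ. Of 43 members tested over 22 libraries a region, 30 were higher and 6 lower in SCN than in ARC, against 36.4% of all 15105 genes called higher and 36.6% lower (72.9% in all). The members' median was 0.52 and that of all genes 0.00. Col24a1, a fibrillar collagen, had the smallest p. It measured 1.55, 2.04 and 6.46 CPM across ARC and 6.18, 11.8 and 14.1 CPM across SCN libraries, and 21 of 22 SCN libraries lay above every ARC library (2.29 ± 0.11 SE, adjusted p = 2.52e-21). Col11a1 gave 11, 17.3 and 41.2 CPM across ARC and 36.1, 63.6 and 89.9 CPM across SCN libraries (1.83 ± 0.10 SE, adjusted p = 1.47e-19), and Col11a2, its partner chain in type XI, differed by 1.46 ± 0.09 SE, adjusted p = 1.45e-18.

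Each chain of types I, III, V and VI was higher in SCN. The differences were 1.36 for Col1a1, 0.52 for Col1a2, 1.19 for Col3a1, 1.61 for Col5a1, 0.66 for Col5a2 and 0.25 for Col5a3. Those of type VI were 2.03 for Col6a1, 1.06 for Col6a2 and 0.44 for Col6a3, with 0.88, 0.36 and 0.95 for Col6a4, Col6a5 and Col6a6. Without Hu SCN ZT 18 replicate 1, which held 61.4 CPM of Col6a3, the difference of Col6a3 was 0.18 and was not called (adjusted p = 0.055). The calls of Col5a3, Col6a5 and, among the other types, Col18a1 also lay near the threshold (adjusted p = 0.0457, 0.0437 and 0.0385), and were lost in 23, 16 and 12 of 49 alternative fits, most of them fits without 1 library. Type IV was split, with Col4a1 (0.74), Col4a2 (0.98), Col4a5 (0.29) and Col4a6 (0.77) higher, Col4a3 lower (-0.42) and Col4a4 not called.

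Lower in SCN were, by p, Col8a2, Col25a1, Col8a1, Col12a1, Col4a3 and Col23a1. Col8a2, a short-chain collagen, measured 4.62, 6.01 and 7.15 CPM across ARC and 0.899, 1.76 and 3.51 CPM across SCN libraries, so that every SCN library was below every ARC library (-1.65 ± 0.13 SE, adjusted p = 7.64e-15). Col25a1 gave 125, 168 and 200.1 CPM across ARC and 64.7, 85.3 and 171 CPM across SCN libraries, with 19 of 22 SCN libraries below all of ARC (-0.83 ± 0.08 SE, adjusted p = 2.25e-12). Col8a1, the other short-chain member tested, differed by -0.57 ± 0.09 SE, adjusted p = 4.57e-07.

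Markers of other cells differed between the dissected regions too. All 9 meningeal fibroblast markers were higher in SCN, with sums of 35.2 to 117 CPM in ARC and 71.2 to 489 CPM in SCN. So were 8 of 8 endothelial and 6 of 8 pericyte genes, against 36.4% of all genes. The shift was not confined to these lists. Also higher were 6 of 8 neuron genes, with 1 lower, and 7 of 10 stellate cell and 6 of 6 activated myofibroblast genes tested. Mostly lower were the pituitary (3 of 3 tested) and muscle fibre (4 of 6 tested) lists. 5 SCN libraries had meningeal sums above every ARC library, the highest being Hu ZT 6 replicate 1 at 489 CPM and Mu ZT 10 replicate 1 at 358 CPM. In these 2, Col3a1 stood at 18.9 and 16.6 CPM, beside a median of 2.96 CPM over all SCN libraries. The part of these cells in the collagen differences was not tested. Without the 5, a choice made after seeing the data, 26 members were higher and 5 lower. The difference of Col3a1 was then 0.51 and that of Col1a2 0.21, while Col24a1 (2.28), Col11a1 (1.88) and Col8a2 (-1.75) moved little, and Col5a3, Col9a2, Col13a1, Col18a1 and Col4a3 were no longer called.

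**Figure D5:**
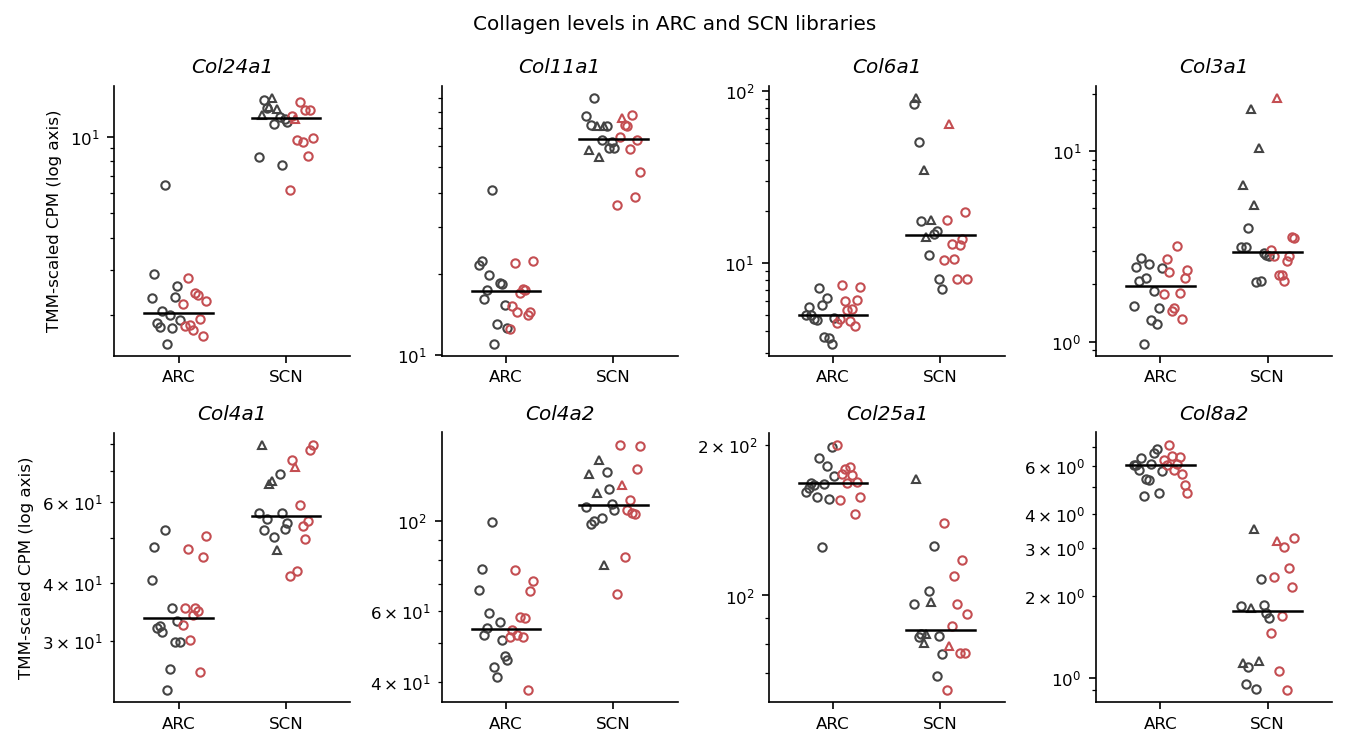
TMM-scaled CPM (log axis) of 8 collagen genes in the 22 ARC and 22 SCN libraries, in grey for Mu and red for Hu, with bars at the medians and triangles for the 5 SCN libraries whose meningeal marker sums exceed every ARC library. Col24a1 and Col11a1 are higher and Col8a2 and Col25a1 lower in SCN, and the highest Col3a1 values are triangles.

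Genes that make, process, bind and break down collagen were taken from 6 lists. For these genes, ± after a mean level in CPM is the standard deviation over libraries, and ± after a difference is the SE. In liver, 12 of 21 chaperones and modifying enzymes tested were higher in Hu and 3 lower, with Crtap at 17.3 ± 3.20 CPM in Mu and 41.5 ± 9.97 CPM in Hu (1.28 ± 0.11, adjusted p = 4.43e-10), P3h2 at 2.60 ± 0.26, adjusted p = 3.87e-09 and P4ha3 at 2.03 ± 0.28, adjusted p = 6.31e-07. Kdelr2, Ppib and Tmem38b were the 3 lower ones. The shares over all genes in liver, for these and the following lists, were 42.5% called higher and 37% lower. 11 of 12 genes of propeptide cleavage and crosslinking were higher, among them Loxl2, an enzyme that crosslinks fibrils, at 5.17 ± 1.30 CPM in Mu and 22.8 ± 12.8 CPM in Hu (2.14 ± 0.29, adjusted p = 4.15e-07), with Adamts14 and Tgm2. Bmp1, the protease that removes the C-terminal propeptide of fibrillar collagens, was the 1 lower gene at 172 ± 27.1 CPM in Mu and 60.8 ± 12.5 CPM in Hu (-1.50 ± 0.11, adjusted p = 3.89e-11).

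Of 11 collagen receptors tested in liver, 9 were higher and 0 lower, with Ddr1, a receptor kinase for collagen, at 8.09 ± 2.33 CPM in Mu and 44.1 ± 6.88 CPM in Hu (2.45 ± 0.12, adjusted p = 2.66e-14), Adgrg1 at 3.07 ± 0.18, adjusted p = 4.62e-13 and Cd36 at 2.05 ± 0.17, adjusted p = 1.34e-10. 30 of 32 proteoglycan and matrix genes were higher and 0 lower. Nid1 and Nid2, which link type IV collagen to laminin, differed by 3.30 ± 0.19, adjusted p = 3.93e-13, and 1.51 ± 0.14, adjusted p = 1.27e-09, and Lama5, a laminin chain, by 2.63 ± 0.16, adjusted p = 8.48e-13. The growth factor list had 21 of 25 higher and 1 lower, with Tgfb2 at 3.12 ± 0.26, adjusted p = 1.86e-10, Smad3 and Pdgfc higher and Pdgfa lower. Breakdown enzymes and inhibitors had 14 of 19 higher (Fap, Mmp12 and Mmp13 first by p) and 3 lower (Mmp15, Ctsl and Mmp19). The medians of the 6 lists lay between 0.56 and 1.73, beside 0.07 for all genes.

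In muscle the medians of the same lists lay between -0.25 and 0.04, beside 0.03 for all genes. Of all genes tested in muscle, 13.5% were called higher and 13.3% lower. 9 of 21 chaperones and modifying enzymes were lower and 1 higher, with Plod1, a lysyl hydroxylase, at 47.7 ± 8.89 CPM in Mu and 33.4 ± 4.50 CPM in Hu (-0.51 ± 0.08, adjusted p = 1.41e-04), Colgalt2 and P3h4 lower and P4hb higher. Loxl2 was lower (-0.90 ± 0.18, adjusted p = 9.90e-04), as were Bmp1 and Adamts14, and Tll1 and Pcolce2 were higher. 11 of 32 matrix genes were lower, first Mfap4, Fbn2 and Hspg2 (perlecan, -0.56 ± 0.10, adjusted p = 3.27e-04), and 3 were higher (Fbln5, Efemp1 and Fbln1). Receptors had 2 of 11 lower (Cspg4 and Itgb1) and 0 higher. The growth factor list had 3 higher (Pdgfc, Tgfbr1 and Tgfbr3) and 3 lower (Pdgfrb, Pdgfb and Ltbp4) of 23, and the breakdown list 4 higher (Mrc1, Mmp9 and Mmp3 first) and 6 lower (among them Mmp16 and Mrc2) of 20. The counts of the receptor and growth factor lists in muscle lay near the shares of all genes. In ARC and SCN 0 genes of the 6 lists were called by edgeR, against 0.00663% and 0% of all genes.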

How the data were processed

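RNA-seq was made from liver, muscle, ARC and SCN of Hu and Mu mice with a kit that keeps strand, per the labels' protocols. The 2 deposited tables hold raw counts per gene made by the authors, 1 of liver with human and mouse rows and 1 of the other tissues. The submitters' processing notes name STAR and the builds GRCm38, mm10, hg38, GRCh38 and hg19; the counter and annotation are not given in the sources used here. Libraries were grouped by arm, tissue and ZT from the labels, and 2 columns (Hu ARC and Hu SCN at ZT 22) could be placed by group only. Depth was 7.70 to 118.3 M mouse counts per library. Standard errors of differences and slopes come from the quasi-likelihood fit and include the spread between libraries.

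Genes passing filterByExpr were fitted per tissue with edgeR 4.0.16 (R 4.3.3), TMM scaling, arm and 24 h cosine and sine terms per arm, and the quasi-likelihood F test with Benjamini-Hochberg adjustment over all genes tested. The human share was a covariate in a fit of Hu livers, a joint fit of liver and muscle tested the interaction, and a joint fit of ARC and SCN the region. DESeq2 1.42.0, other scalings, no filter, ZT as a factor, a replicate block and leaving out each library were alternatives. The fits were checked on simulated counts. Exon lengths are from GENCODE M21 and promoters from RefSeq on GRCm38.p6.

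The members and lists were chosen with earlier results of these data known. The text names with values all chains of types I, III, IV, V and VI, the 3 highest per tissue, and per test the 3 of smallest p in each direction, with up to 3 genes per direction from each related list (1 gene of the breakdown list is counted but not reported by name here); further members named were chosen after their values were seen. Hu and Mu libraries of 1 tissue and ZT with the same replicate number did not deviate together in every pair. The mean correlation was 0.13 in liver (lowest -0.0037), 0.032 in muscle (lowest -0.21), 0.15 in ARC (lowest -0.14) and 0.12 in SCN (lowest -0.30). Where each arm had 2 libraries, both pairs gave the same value. Such pairs join different animals, and pairs across tissues, which could be of 1 animal, are not among these values.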

Additional observations from a re-analysis of the deposited data

Results flagged for a closer look

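Among the brain libraries, 16 values of collagen genes stood far from the rest of their group of 10 Hu libraries. 86 groups were tested and chance gives about 1 such value in 20 groups. These were groups of Hu libraries of ARC and SCN, and Mu brain, liver and muscle libraries were not screened. The groups share the same libraries and are not independent, so that rate does not measure how unusual 16 values are. Hu SCN ZT 6 replicate 1 held 12 of them, all high: 64.8 CPM of Col6a1, 28.9 of Col1a1, 6.07 of Col20a1, 24.7 of Col6a2, 18.9 of Col3a1, 20.9 of Col5a1, 51.0 of Col1a2, 6.44 of Col4a6, 12.1 of Col4a5, 13.6 of Col12a1, 4.44 of Col13a1 and 5.92 of Col8a1. For Col3a1 the other 9 libraries lay between 2.09 and 3.53 CPM. The same library had the highest meningeal marker sum, 489 CPM, and the part of those cells was not tested. Hu SCN ZT 18 replicate 1 held 61.4 CPM of Col6a3 and Hu SCN ZT 2 replicate 1 held 9.42 CPM of Col19a1. The Hu ARC library of ZT 22 held 14.1 CPM of Col6a3 and 2.19 CPM of Col22a1.

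The Hu minus Mu difference was not the same in liver and muscle for 33 of the 36 collagens tested in both, by the interaction term of edgeR's quasi-likelihood test, which was called upward for 31.7% and downward for 33.4% of all genes. Liver minus muscle, on the log2 scale, the type IV chains gave 2.43 for Col4a1, 2.56 for Col4a2, 3.00 for Col4a3, 2.91 for Col4a4, 3.91 for Col4a5 and 2.05 for Col4a6. The fibrillar chains gave 3.26 for Col1a1, 2.89 for Col1a2, 2.61 for Col3a1, 2.17 for Col5a1, 2.91 for Col5a2, 1.08 for Col11a2, 2.49 for Col24a1, -1.48 for Col5a3 and -2.08 for Col27a1. Type VI gave 2.19 for Col6a1, 1.89 for Col6a2 and 3.04 for Col6a3. The FACIT members gave 2.92 for Col12a1, 1.11 for Col14a1, 2.25 for Col16a1, 2.09 for Col22a1, 1.23 for Col9a3 and -0.84 for Col20a1. The others were Col7a1 with 1.16, Col8a1 with 2.57, Col8a2 with 1.98, Col13a1 with 1.39, Col15a1 with 1.25, Col23a1 with 1.34, Col25a1 with 3.18, Col28a1 with 2.55 and Col18a1 with -1.03.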

How the results depend on the processing

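The counts of collagens that differed between the arms stayed within 1.5 times of 33 in liver and 23 in muscle under each alternative run, as did those between SCN and ARC (36) and for the interaction (38). The interaction was not fitted without TMM or with all rows as library size. In liver those scalings moved the median of all genes to 0.74 and -0.70. The directions of the liver calls moved too, from 29 higher and 4 lower to 31 and 3 without TMM. With all rows as library size they were 20 and 7. Leaving out 1 library gave 33 to 34 in liver, 21 to 25 in muscle, 33 to 37 between regions, 35 to 39 for the interaction and 0 in ARC and SCN. With human and mouse rows as library size, Col6a2 (-0.011) and Col23a1 (-0.006) turned sign in liver, as did the slopes of Col12a1 (-0.004), Col23a1 (-0.133) and Col4a3 (-0.017); the median of all genes moves with this scaling. Slopes on the human share were called for 14 members on that scale, 10 without the 2 livers farthest from the median share, 14 without the 2 of fewest mouse counts and 15 to 24 without 1 liver. Rhythm calls were the least stable. Mu livers had 2, or 0 with all rows as library size and 1 to 2 without 1 library. Hu livers had 0, or 1 by DESeq2, 9 with all rows and 0 to 2 without 1 library. Rhythms that differed between arms in liver numbered 0, or 2 by DESeq2 and 0 to 1 without 1 library. Muscle had 1 in Mu, or 5 by DESeq2 and 1 to 5 without 1 library, and 5 in Hu, or 9 by DESeq2, 3 with no filter and 1 to 9 without 1 library. Mu SCN had 0, or 1 by DESeq2. With the replicate block, liver had 32 differing levels, muscle 26, the regions 31 and the slope 7, and rhythm calls were 1 in Hu liver, 3 in Mu muscle and 2 in Hu muscle; the unnumbered ARC and SCN libraries got a level of their own there. The numbers are not known to pair animals. The causes were not tested. Mouse counts were as few as 7.70 M in the Hu liver of highest human share and 10.9 M in Hu liver ZT 22 replicate 2, which limits low members there.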
